A study of Mus musculus with 5 samples.

Results

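The PYHIN genes examined here are Ifi203, Ifi204, Ifi205, Mnda, Pydc3, Pyhin1 and Aim2, the 7 members named for this account out of 20583 gene symbols in the deposited count table. Each was taken by its symbol and represented by its transcript row with the highest mean read count, and all 7 were found and passed the low-count filter. In the RefSeq annotation the transcript accessions of Mnda, Pydc3 and Pyhin1 now carry the symbols Ifi211, Ifi208 and Ifi209; the deposited symbols are used throughout. Messenger RNA was sequenced from bone marrow-derived macrophages, phagocytes grown from marrow in 25 ng/ml of the growth factor M-CSF for 7 days. The cells came from NICcA mice (2 libraries, replicates 2 and 3) and wild type mice (3 libraries, replicates 1, 2 and 3), all on a C57BL/6 background and 7 to 8 weeks old. The labels do not spell out NICcA, and no promoter, Cre driver or founder line is given for it; in published use the name denotes conditional expression of the intracellular domain of a Notch receptor.

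PYHIN proteins pair an N-terminal pyrin domain, which binds other pyrin domains, with HIN domains, which bind DNA. Aim2 senses double-stranded DNA in the cytosol and joins the adaptor Pycard (ASC) and caspase-1 into an inflammasome that matures interleukin-1 beta. The other members belong to the interferon-inducible p200 group, a tandem cluster of related genes on mouse chromosome 1 that expanded in rodents and is transcribed in macrophages in response to interferons.

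Total counts were 64870248 and 68110891 in the NICcA libraries and lay between 57442309 and 76562905 in the wild type libraries. The 8 macrophage markers of the table summed to 11890 and 12440 CPM (counts scaled to a total of 1e6 after TMM scaling of the libraries) in NICcA and to between 13750 and 20200 CPM in wild type, with Lyz2 alone at 9302 and 10410 CPM in NICcA and between 11520 and 17520 CPM in wild type. Emr1, Itgam, Fcgr1 and Cd14 of the same list were above all wild type libraries in NICcA replicate 2, at 421, 592, 140 and 251 CPM. Fcgr1 was above them in NICcA replicate 3 as well, at 77.5 CPM. Cd68 and Mertk went the other way, below all wild type libraries in both NICcA libraries. In NICcA replicates 2 and 3 Cd68 was at 242.2 and 221.5 CPM, and Mertk at 78.14 and 69.75 CPM. All 5 B cell markers stayed below 1 CPM in every library. Hes1, a direct Notch target, was at 2.77 and 1.73 CPM in NICcA replicates 2 and 3, against 0.0174, 0.0682 and 0.0911 CPM in wild type replicates 1, 2 and 3, so both NICcA libraries lay above the wild type range. NICcA replicate 2 stood apart from NICcA replicate 3 in interferon-responsive genes, and the values of each member are given by library for that reason. Whether libraries of one genotype represent different mice or separately grown cells is not stated, so the p-values below reflect the spread among these 5 libraries and that spread may be technical.

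Promoter sequence was searched for short motifs. The genes are related copies in a single cluster and were chosen as a family, so matches in several of them are not independent. RefSeq promoter windows (GRCm38.p6, 250 bases before to 50 bases after the annotated start) matched 6 of the 7 members, Ifi203 by symbol and the others by transcript accession; Ifi204 is named only. The core letters of the interferon-stimulated response element, GAAA followed after any 2 bases by GAAA, were searched on both strands, and 4 of the 6 members held a match, as did 4 of 5 other PYHIN genes of the locus. The share over all 32851 promoter windows was 3.44%, counted per window, whereas Ifi203 and its neighbour Mndal had 2 windows each. The 70 bases around the first match in each of the 4 members are printed 5′ to 3′ on the gene's strand, with the matching letters in capitals, so that the shared surroundings can be compared.
Ifi205: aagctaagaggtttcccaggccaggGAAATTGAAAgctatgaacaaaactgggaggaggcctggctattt
Mnda: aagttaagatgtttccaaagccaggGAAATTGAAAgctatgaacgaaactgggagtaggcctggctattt
Ifi203: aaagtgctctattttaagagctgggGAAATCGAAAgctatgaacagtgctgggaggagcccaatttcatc
Pydc3: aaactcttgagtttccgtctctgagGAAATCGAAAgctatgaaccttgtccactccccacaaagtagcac

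These stretches lie at chr1:174031845-174031914 for Ifi205, chr1:173913039-173913108 for Mnda and chr1:173942483-173942552 for Ifi203, all on the minus strand, and at chr1:173673582-173673651 on the plus strand for Pydc3. Counted to its first base, the first match lay 134 bases before the start in Ifi205, 37 in Mnda, 35 in Ifi203 (in the second of its 2 windows) and 58 in Pydc3. Ifi205 held a second match on the opposite strand, 23 bases after the start and outside the stretch printed. Aligned on the first match without gaps, Ifi205 and Mnda were identical at 64 of 70 bases. The stretch of Ifi203 was identical to that of its neighbour Mndal at 70 of 70 bases, and that of Pydc3 to that of Pydc4 at 70 of 70. The windows of Pyhin1 and Aim2 held no such match. Of the other motifs searched on both strands, GTGGGAA, the site of the Notch partner Rbpj, occurred in 0 of the 6 members and 6.38% of all windows, and TTCNNNGAA, the gamma-activated site, in 0 of the 6 and 8.3% of all windows. The kappa B letters, GGG followed after any 5 bases by CC, occurred in 2 of the 6 members, Pyhin1 and Ifi203, and in 50.8% of all windows. No match of one motif overlapped a match of another in any window of the locus. A match describes letters in a window and is no evidence of binding.

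The levels of the members per transcript length, in the deposited RPKM of the authors (reads scaled to transcript length and library size), spanned a wide range. In NICcA replicate 2 the order was Ifi204 at 36.2 RPKM, Pyhin1 at 29.9, Mnda at 19.4, Aim2 at 10.3, Ifi205 at 8.85, Ifi203 at 6.81 and Pydc3 at 2.08 RPKM. In NICcA replicate 3 it was Ifi204 at 13.6 RPKM, Aim2 at 9.76, Pyhin1 at 9.53, Mnda at 3.06, Ifi203 at 2.76, Pydc3 at 0.0833 and Ifi205 at 0.0734 RPKM. In wild type the means were 17.8 ± 3.01 RPKM for Ifi204, 10.3 ± 1.11 for Aim2, 9.34 ± 2.26 for Pyhin1, 3.51 ± 0.303 for Mnda, 2.94 ± 0.691 for Ifi203, 0.102 ± 0.0504 for Ifi205 and 0.0725 ± 0.0164 RPKM for Pydc3 (SD, n = 3). The wild type ranges of Aim2 and Pyhin1 overlapped, as did those of Ifi205 and Pydc3, and in both pairs the order turned in wild type replicate 3, so these neighbours did not differ beyond their spread. The ranges of Mnda and Ifi203 also overlapped, but Mnda was the higher in each of the 5 libraries, by the least in wild type replicate 3 at 3.34 against 3.32 RPKM. All wild type values of Ifi204 lay above all those of Aim2. The order in NICcA replicate 3 matched the wild type order except that Pydc3 and Ifi205, both from counts of 21 or fewer, changed places.

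**Figure D1:**
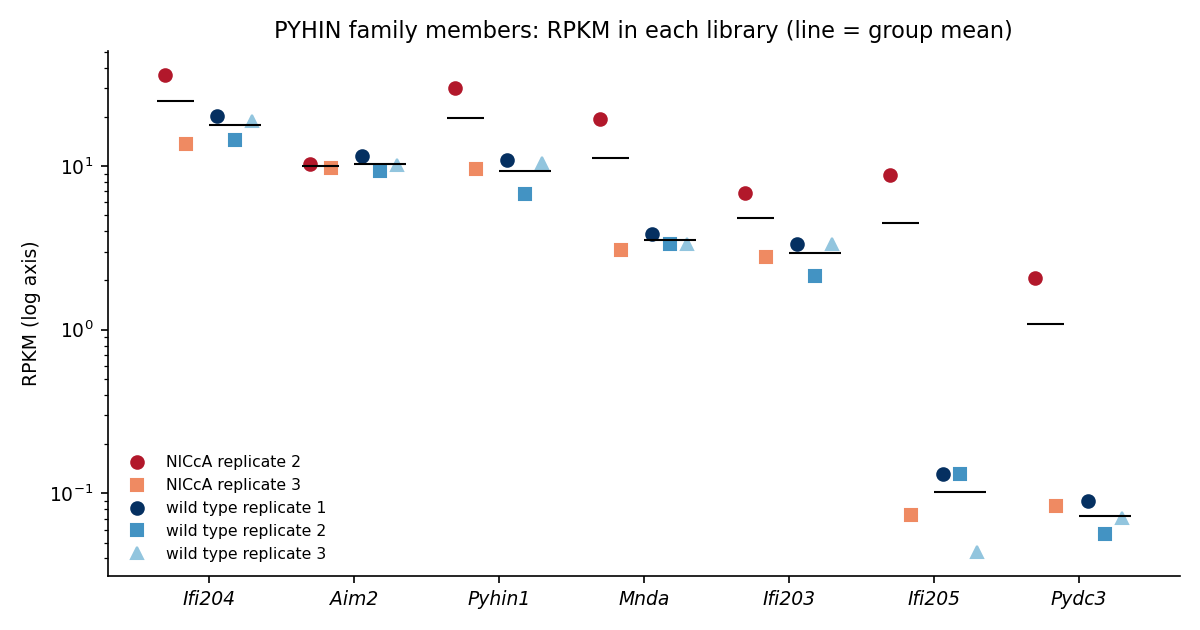
RPKM (log axis) of the 7 members in each library, with NICcA libraries to the left of wild type libraries within each gene and a line at each group mean. NICcA replicate 2 lies above all wild type libraries for 6 members, and Aim2 lies between 9.34 and 11.5 RPKM in all 5 libraries.

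In NICcA replicate 2 every member except Aim2 was above all wild type libraries, whereas in NICcA replicate 3 none was. Lying above all wild type libraries in NICcA replicate 2 held for 6 of 7 members and for 32.3% of the 13341 genes tested. An excess of at least 2-fold over the wild type mean (on log2 CPM with a prior count of 2) held there for 5 of 7 members, against 8.7% of genes, and in NICcA replicate 3 for 0 of 7 members, against 5.89% of genes. These counts come from single libraries and carry no test. Across both groups, 0 of 7 members passed edgeR's quasi-likelihood test (Benjamini-Hochberg adjusted p below 0.05), where 0.03% of genes passed. DESeq2, another count test, also called 0 of 7 members, where it called 3.61% of genes. At an unadjusted p below 0.05 edgeR had 2 of 7 members, Ifi205 and Pydc3, and 14.5% of genes, and DESeq2 had the same number of members and 16.2% of genes. In no member did both NICcA libraries lie above all wild type libraries (18.3% of genes) or below them (18.5% of genes). The median log2 fold change was 0.97 over the members and 0.00 over all genes tested, with no claim that the list stands apart.

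The members with the lowest wild type levels differed most between libraries. Ifi205, a p200 protein reported to regulate transcription of the inflammasome adaptor gene Pycard in mouse macrophages, had 1121 and 10 counts in NICcA replicates 2 and 3, against 15, 20 and 6 counts in wild type replicates 1, 2 and 3. These correspond to 16.8 and 0.139 CPM in NICcA and 0.26, 0.273 and 0.0911 CPM in wild type. Only NICcA replicate 2 was high, at 80.6 times the wild type mean, and NICcA replicate 3 lay within the wild type range. The log2 fold change of NICcA over wild type was 5.33 (SE 1.61, edgeR adjusted p = 0.30).

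Pydc3, a pyrin domain protein of the cluster, had 488 and 21 counts in NICcA replicates 2 and 3, against 19, 16 and 18 counts in wild type, or 7.3 and 0.291 CPM against 0.33, 0.218 and 0.273 CPM. NICcA replicate 2 was at 26.7 times the wild type mean and NICcA replicate 3 at 1.06 times it, within the wild type range. Its log2 fold change was 3.79 (SE 1.15, edgeR adjusted p = 0.30).

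Mnda, whose human namesake is the myeloid cell nuclear differentiation antigen, was at 37.6 and 5.92 CPM in NICcA replicates 2 and 3, against 7.86, 7.08 and 7.09 CPM in wild type. The wild type libraries lay close together, with the highest at 1.11 times the lowest, and the NICcA libraries lay on opposite sides of them, at 5.12 and 0.806 times the wild type mean. The log2 fold change was 1.57 (SE 0.66, edgeR adjusted p = 0.35).

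Pyhin1, a pyrin and HIN domain protein whose human counterpart is IFIX, was at 123 and 39.0 CPM in NICcA replicates 2 and 3, against 46.8, 30.3 and 46.9 CPM in wild type. NICcA replicate 2 was at 2.97 times the wild type mean, and NICcA replicate 3 lay within the wild type range. The log2 fold change was 0.97 (SE 0.46, edgeR adjusted p = 0.38).

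Ifi203, a p200 protein present in many mouse tissues, was at 28.9 and 11.7 CPM in NICcA replicates 2 and 3, against 14.9, 9.95 and 15.5 CPM in wild type. NICcA replicate 2 was at 2.15 times the wild type mean, with NICcA replicate 3 inside the wild type range (log2 fold change 0.60, SE 0.39, edgeR adjusted p = 0.49). The table holds 2 rows for Ifi203, and the other row had 1931 counts in NICcA replicate 2 where the row used had 1934, so these rows count nearly the same reads.

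Ifi204, which is known in mouse macrophages as a nuclear and cytosolic DNA sensor upstream of STING and as a differentiation factor, was the most abundant member per length in every library. It was at 97.7 and 36.7 CPM in NICcA replicates 2 and 3, against 57.0, 42.6 and 55.6 CPM in wild type. The NICcA libraries lay above and below the wild type range, at 1.89 and 0.708 times its mean (log2 fold change 0.38, SE 0.39, edgeR adjusted p = 0.66).

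Aim2 was at 30.6 and 28.99 CPM in NICcA replicates 2 and 3, against 36.1, 30.5 and 33.1 CPM in wild type. NICcA replicate 2 lay inside the wild type range at 0.921 times the wild type mean, and NICcA replicate 3 just below the range at 0.872 times it. In RPKM both NICcA libraries lay within the wild type range, at 10.3 and 9.76 against 9.34 to 11.5. On CPM the NICcA libraries differed by a factor of 1.06, where those of the other members differed by factors of 2.48 (Ifi203) to 121 (Ifi205). The log2 fold change of Aim2 was -0.16 (SE 0.11, edgeR adjusted p = 0.53), the only negative one among the members.

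Without NICcA replicate 2 the log2 fold changes of Ifi203, Ifi204, Ifi205, Mnda and Pyhin1 turned to -0.20, -0.50, -0.58, -0.31 and -0.08, that of Pydc3 was 0.09, and 0 of 7 members were called. Without NICcA replicate 3 edgeR called 3 of 7 members higher, against 0.318% of genes: Ifi205 (log2 fold change 6.32, adjusted p = 0.027), Mnda (2.36, adjusted p = 0.022) and Pydc3 (4.74, adjusted p = 0.023). Over all alternatives run, the adjusted p ranged from 0.027 to 0.95 for Ifi205, from 0.022 to 0.90 for Mnda and from 0.023 to 0.99 for Pydc3. The fit without NICcA replicate 3 rests on 1 NICcA library, which is assumed to vary as the wild type libraries do, and so describes NICcA replicate 2 rather than the genotype.

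The members sit in a single block on chromosome 1, and the neighbouring PYHIN genes of the table were set beside them. From one end the order is Aim2, BC094916, Pydc4, Pyhin1, Pydc3, AI607873, Ifi204, Mndal, Mnda, Ifi203, Ifi202b and Ifi205, taken from the RefSeq annotation as an order of neighbours only. Pydc4 had 427 and 18 counts in NICcA replicates 2 and 3, against 35, 17 and 26 counts in wild type, and its log2 fold change was 3.02 (SE 1.15, edgeR adjusted p = 0.34). BC094916, too low to be tested, had 38 and 2 counts in NICcA, against 2, 1 and 3 in wild type. Mndal was at 40.5 and 17.4 CPM in NICcA, against 25.5, 16.7 and 20.4 CPM in wild type (log2 fold change 0.47, SE 0.36, edgeR adjusted p = 0.55).

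Not every gene of the block was high in NICcA replicate 2. AI607873, placed between Pydc3 and Ifi204, was at 44.8 and 22.5 CPM in NICcA replicates 2 and 3, against 35.5, 25.4 and 50.03 CPM in wild type, so NICcA replicate 2 lay within the wild type range. The promoter window of AI607873 holds the interferon-stimulated response element letters 41 bases before the start. Ifi202b had 0 and 1 counts in NICcA and 0, 0 and 1 in wild type, at or below a floor of 3 counts in every library. Of the 5 other PYHIN genes, 3 were tested and 0 passed edgeR's test in either direction (0.03% of all genes). Pydc4 alone had an unadjusted edgeR p below 0.05 (14.5% of all genes).

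**Figure D2:**
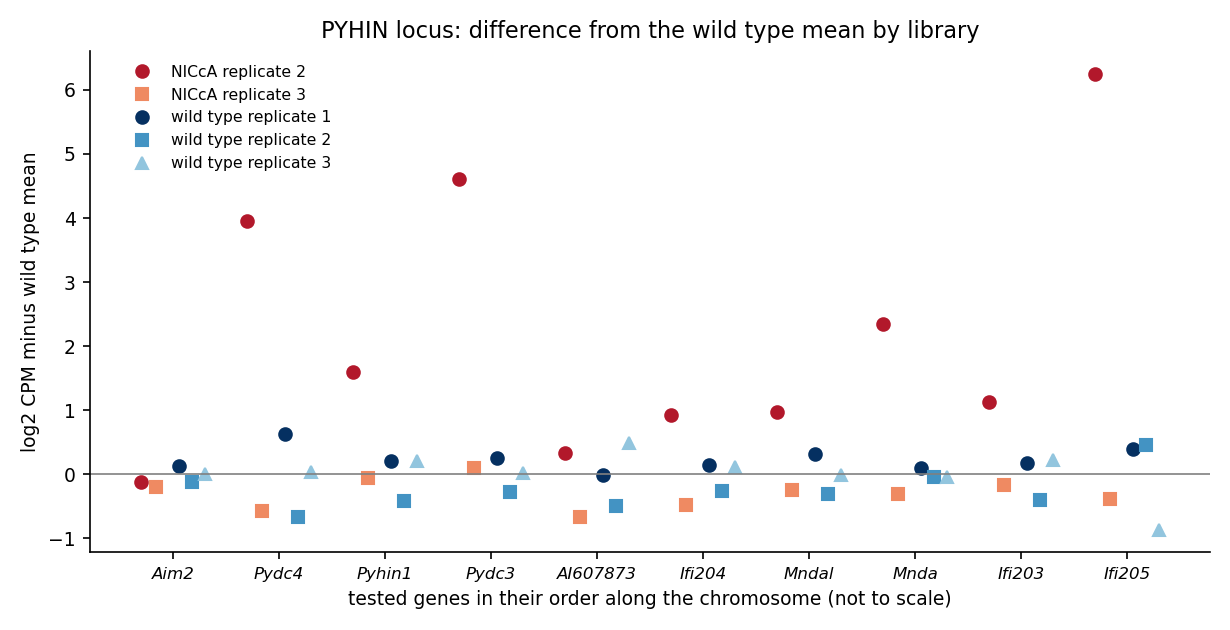
Difference of log2 CPM from the wild type mean in each library for the 10 tested PYHIN genes, in chromosomal order but not to scale, NICcA libraries left of wild type libraries. In NICcA replicate 2 the difference is 6.26 for Ifi205, 4.61 for Pydc3, 3.96 for Pydc4 and 2.35 for Mnda, and -0.12 for Aim2 at the end of the block.

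Related genes of this cluster can share reads, and the amount of shared sequence differs among the members. In GENCODE M21 transcripts, 72.9% of the 50-base stretches of Mnda also occurred in a transcript of another gene (1 transcript per member, for Ifi203 the longest coding one), with Ifi205 sharing the most (44.6%) and Ifi204 next (30%). The share was 49.6% for Ifi205, 35.1% for Pyhin1, 30.2% for Ifi204, 25.9% for Pydc3, 10.7% for Ifi203 and 0.789% for Aim2. The counts of some related pairs are given beside these shares. In NICcA replicate 3 Mnda had 427 counts while Ifi205, with 49.5% of its stretches in Mnda, had 10, and Pyhin1 had 2814 while BC094916, with 35% of its stretches in Pyhin1, had 2. In these pairs the partner had far fewer counts than the abundant gene, and how the shared reads were assigned was not tested. Pydc3 and Pydc4, where 21.0% of Pydc3 stretches occur in Pydc4, had 488 and 427 counts in NICcA replicate 2 and 19 and 35 counts in wild type replicate 1, and how far each count holds reads of the other was not tested. The mapping rule is not stated in these sources, the transcripts are of another build than the one the submitters name, and the values of all members except Aim2 are uncertain to that extent.

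**Figure D3:**
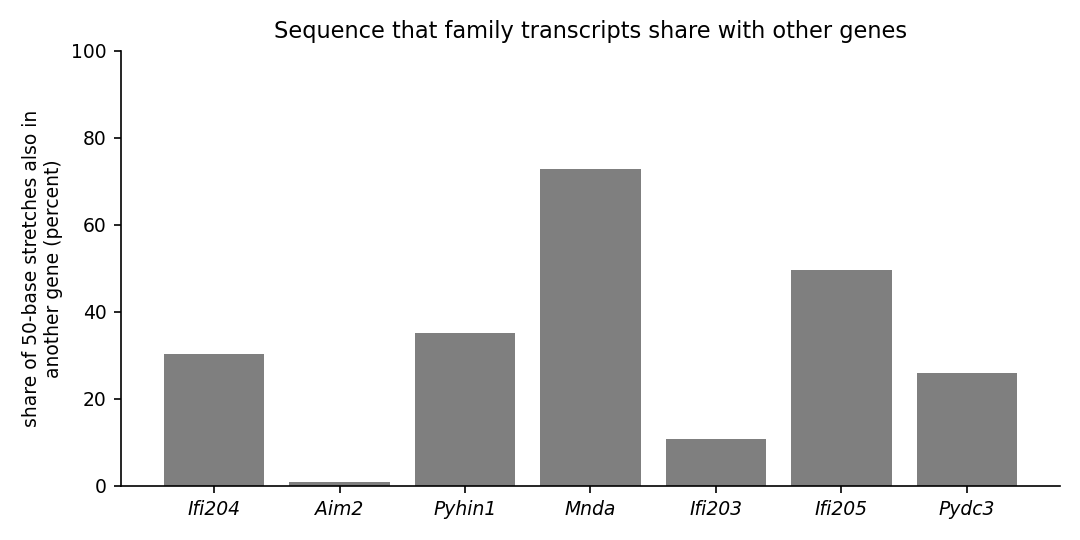
Percent of the 50-base stretches of each member's transcript that also occur in a transcript of another gene (GENCODE M21), members ordered by wild type RPKM. The bars run from 0.789% for Aim2 to 72.9% for Mnda.

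The downstream partners of Aim2 were examined as a list of 10 inflammasome genes. Of these, 0 passed edgeR's test in either direction (0.03% of all genes), 1 had an unadjusted p below 0.05 (14.5% of all genes), and DESeq2 called 1, Il1b, higher (3.61% of all genes in either direction). Il1b, the interleukin-1 beta precursor gene, was at 501 and 76.4 CPM in NICcA replicates 2 and 3, against 16.6, 14.3 and 14.8 CPM in wild type (log2 fold change 4.24, SE 0.72, edgeR adjusted p = 0.27). Both NICcA libraries lay above the wild type range for Il1b, with NICcA replicate 2 far above the other. Pycard, the adaptor, was at 162 and 130.5 CPM in NICcA, against 135, 114 and 109 CPM in wild type, with NICcA replicate 3 inside the wild type range (log2 fold change 0.29, SE 0.15, edgeR adjusted p = 0.40). In RPKM NICcA replicate 3 lay just above the wild type range for Pycard, at 52.2 against at most 51.4. Casp1, the protease of the complex, was at 36.8 and 32.2 CPM in NICcA and 39.0, 32.3 and 39.8 CPM in wild type. The list's median log2 fold change was 0.23, beside 0.00 over all genes tested, and its median log2 difference from wild type was 0.36 in NICcA replicate 2 and -0.09 in NICcA replicate 3.

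Among 17 tested genes of cytosolic DNA sensing, 0 passed edgeR's test (0.03% of all genes) or DESeq2's (3.61%), 4 had an unadjusted edgeR p below 0.05 (14.5% of all genes), and the median log2 fold change was 0.18. The list's median log2 difference from wild type was 0.25 in NICcA replicate 2 and 0.17 in NICcA replicate 3. Tmem173, which encodes STING, was at 77.2 and 63.5 CPM in NICcA replicates 2 and 3, against 57.0, 55.0 and 48.3 CPM in wild type. Both NICcA libraries were above all wild type libraries, by a small margin (log2 fold change 0.40, SE 0.13, edgeR adjusted p = 0.32). Mb21d1, which encodes the DNA sensor cGAS, was at 17.2 and 12.7 CPM in NICcA and 12.9, 11.98 and 8.26 CPM in wild type. Irf7, the interferon regulatory factor that amplifies type I interferon, was at 206 and 11.2 CPM in NICcA replicates 2 and 3, against 12.4, 19.1 and 10.8 CPM in wild type. Only NICcA replicate 2 was high for Irf7 (log2 fold change 2.95, SE 1.01, edgeR adjusted p = 0.32).

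All 18 antiviral interferon-stimulated genes tested had their highest level in NICcA replicate 2, as the p200 members did. Of the 18, 17 were at least 2-fold above the wild type mean in NICcA replicate 2 (8.7% of all genes) and 0 in NICcA replicate 3 (5.89% of all genes). An unadjusted edgeR p below 0.05 was found for 12 of them (14.5% of all genes), and 0 passed edgeR's test (0.03% of all genes) or DESeq2's (3.61%). The median log2 difference of these genes from wild type was 2.80 in NICcA replicate 2 and -0.06 in NICcA replicate 3. For the 7 members it was 1.60 in NICcA replicate 2 and -0.19 in NICcA replicate 3. Isg15, a ubiquitin-like modifier, was at 101 and 5.03 CPM in NICcA, against 4.88, 6.21 and 2.97 CPM in wild type (log2 fold change 3.50, SE 1.07, edgeR adjusted p = 0.30). Ifi44 was at 28.8 and 1.37 CPM in NICcA replicates 2 and 3, against 1.34, 1.41 and 0.562 CPM in wild type, so NICcA replicate 3 lay within the wild type range (log2 fold change 3.77, SE 1.12, edgeR adjusted p = 0.30).

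The interferon receptors and their signalling factors gave 0 of 14 members past edgeR's test (0.03% of all genes) or DESeq2's (3.61%), 4 with an unadjusted edgeR p below 0.05 (14.5% of all genes), and a median log2 fold change of 0.30. Their median log2 difference from wild type was 0.46 in NICcA replicate 2 and -0.05 in NICcA replicate 3. Socs1, a feedback inhibitor of cytokine receptors, was at 61.4 and 17.7 CPM in NICcA replicates 2 and 3, against 9.30, 11.03 and 4.63 CPM in wild type, so both NICcA libraries lay above the wild type range (log2 fold change 2.25, SE 0.57, edgeR adjusted p = 0.28). Ifngr1, a chain of the interferon gamma receptor, was at 82.7 and 110 CPM in NICcA, against 134, 115 and 144 CPM in wild type, with both NICcA libraries below that range (log2 fold change -0.44, SE 0.17, edgeR adjusted p = 0.33). In RPKM NICcA replicate 3 lay within the wild type range for Ifngr1, at 44.8 against 51.9, 42.7 and 53.15. Ifnb1, the interferon beta gene, had 24 counts in NICcA replicate 2 and 0 in NICcA replicate 3, against 0, 2 and 0 counts in wild type, and was too low to be tested.

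**Figure D4:**
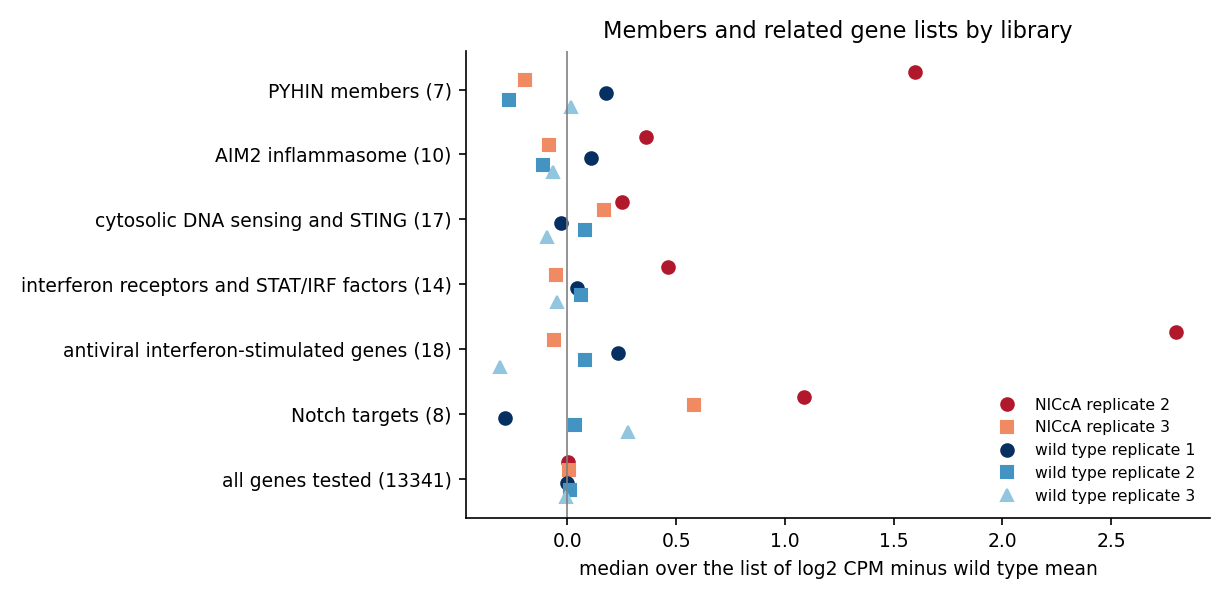
Median over each list of log2 CPM minus the wild type mean, by library, with NICcA libraries drawn above wild type libraries in each row and the number of tested genes in brackets. In NICcA replicate 2 the median is 2.80 for antiviral interferon-stimulated genes and 1.60 for the PYHIN members, and in NICcA replicate 3 it is -0.06 and -0.19.

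Notch targets were set beside these lists. Of 8 tested, 0 passed edgeR's test (0.03% of all genes), 5 had an unadjusted p below 0.05 (14.5%), and DESeq2 called 3, all higher (3.61% of all genes in either direction). The list's median log2 difference from wild type was 1.09 in NICcA replicate 2 and 0.58 in NICcA replicate 3. Hes1, with both NICcA libraries above the wild type range, had a log2 fold change of 5.18 (SE 0.54, edgeR adjusted p = 0.13), and Myc, at 13.5 and 11.8 CPM in NICcA and 8.19, 8.68 and 8.18 CPM in wild type, one of 0.60 (SE 0.13, edgeR adjusted p = 0.27). In NICcA replicate 3, Hes1 lay above the wild type range and no p200 member did. Whether the members depend on Notch activity was not tested.

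The genes whose profile was most like the mean of the 7 members were found by Euclidean distance over the 5 libraries, on log2 CPM centred on the wild type mean, among 9388 genes with a mean of at least 5 CPM outside the family. They were Oas3 (distance 0.50), Igtp (0.53), Gm12250 (0.64), Ifi47 (0.64) and Mx2 (0.66), the last an interferon-induced dynamin-like GTPase. Oas3, an oligoadenylate synthetase of the antiviral response, was at 122 and 23.6 CPM in NICcA replicates 2 and 3, against 37.3, 29.04 and 28.9 CPM in wild type. It was high in NICcA replicate 2 and below the wild type range in NICcA replicate 3, as Ifi204 and Mnda were. The other p200 members lay within that range in NICcA replicate 3. The mean profile stood at 2.395 in NICcA replicate 2, above the member median of 1.60, with Ifi205 at 6.26 and Pydc3 at 4.61. Igtp, an immunity-related GTPase, was at 44.1 and 10.95 CPM in NICcA and 13.3, 10.9 and 12.02 CPM in wild type. With 5 libraries a profile is set mainly by NICcA replicate 2, and none of these 5 genes passed edgeR's test.

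Some PYHIN genes are also transcribed in lymphocytes and granulocytes, so markers of other cells were set beside the members. The 7 T and NK cell markers summed to 3.35 and 4.21 CPM in NICcA replicates 2 and 3 and to between 2.32 and 4.36 CPM in wild type, and Cd3e, a chain of the T cell receptor complex, was at most 0.0449 CPM. The 7 dendritic cell markers summed to 1000 and 649 CPM in NICcA and to between 712 and 898 CPM in wild type, mostly from Itgax, which macrophages also express. Flt3, Siglech and Xcr1 stayed below 1 CPM in every library, yet for each both NICcA libraries lay above the wild type range. In NICcA replicates 2 and 3 Flt3 was at 0.464 and 0.762 CPM, against at most 0.425 CPM in wild type. Siglech was at 0.269 and 0.707 CPM against at most 0.1735 CPM, and Xcr1 at 0.598 and 0.596 CPM against at most 0.395 CPM. Zbtb46 was at 10.7 and 7.61 CPM in NICcA replicates 2 and 3 and 5.33, 4.82 and 2.67 CPM in wild type, and Cd209a at 16.4 and 18.9 CPM in NICcA and 12.6, 6.87 and 2.02 CPM in wild type, so for both markers the NICcA libraries lay above the wild type range. Ccr7 within that list was at 166 and 69.4 CPM in NICcA replicates 2 and 3 and 33.5, 77.6 and 23.7 CPM in wild type, highest in the library where the p200 members were highest. The 7 neutrophil markers summed to 110 and 126 CPM in NICcA and to between 54.5 and 104 CPM in wild type. Both NICcA libraries lay above the wild type range for Ltf, at 23.7 and 20.8 against at most 18.45 CPM. The same held for Ngp, at 27.6 and 31.8 against at most 20.7 CPM, but not for S100a8, S100a9, Mpo, Elane or Camp. The B cell markers summed to 0.569 and 0.665 CPM in NICcA and to between 0.416 and 1.002 CPM in wild type. The 5 fibroblast markers were at most 0.696 CPM in sum except in wild type replicate 1, at 17.1 CPM, and the 5 erythroid markers summed to at most 1.05 CPM. The part of the dendritic cell and neutrophil markers in the result was not tested. In bulk samples more cells of a type and more RNA per cell cannot be told apart.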

How the data were processed

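Per the series' design text and the file headers, the deposited count table holds the authors' raw read count and RPKM for 27457 RefSeq transcript rows, and the RPKM values of the 8 member rows were identical in the second deposited table of 64528 rows. Bowtie 0.12.2 and mm8 appear in the submitters' processing notes with no role stated. How reads were counted, with which strand setting and filters, is not given in the sources used here. Promoter coordinates are of GRCm38.p6.

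Counts were tested across all rows with edgeR 4.0.16 in R 4.3.3 (TMM, filterByExpr, glmQLFit, glmQLFTest, genotype as the only term, Benjamini-Hochberg adjustment over 18267 rows of 13341 genes), and each gene was represented by the transcript row with the most reads on average. The SE was obtained as |log2 fold change| over the root of the F statistic. The procedure was tested on simulated data. Alternatives used DESeq2 1.42.0, limma 3.58.1 on log2 RPKM with a pseudocount, other scalings and filters, a replicate term, and omission of each library. Python 3.11.15 made the figures. Members and lists were chosen with earlier results of these data known. By rule, all members, the 2 genes of each list with the smallest p, any past the threshold, and the 5 nearest profiles were named; Casp1, Mb21d1, Ifnb1, Ccr7, AI607873, BC094916, Ifi202b and single marker genes were named after their values were seen. 1 gene of the lists is not reported here.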

Additional observations from a re-analysis of the deposited data

How the results depend on the processing

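The number of members called was 0 under every alternative run except without NICcA replicate 3, where it was 3, so it ranged from 0 to 3 over the fits without 1 library; the number of genes called, 4 in all 5 libraries, ranged there from 0 to 44. It was 0 without wild type replicate 2 or NICcA replicate 2 and 44 without NICcA replicate 3. It was 11 with no low-count filter, 476 with DESeq2, 2 with limma on log2(RPKM + 1) and 2 on log2(RPKM + 0.1), and 0 with the replicate number as a block over the libraries numbered 2 and 3, a fit that left 4 libraries. Same-numbered libraries deviated together at r = 0.206 for number 2 and r = 0.168 for number 3, across genes. Deviations were taken from the group mean, so those of the 2 NICcA libraries mirror each other. The 2 values are therefore not separate observations and do not establish pairs. Over the fits without 1 library the log2 fold change ran from -0.20 to 1.11 for Ifi203, -0.50 to 0.92 for Ifi204, -0.58 to 6.32 for Ifi205, -0.31 to 2.36 for Mnda, 0.09 to 4.74 for Pydc3, -0.085 to 1.57 for Pyhin1 and -0.22 to -0.09 for Aim2; the 5 that turned negative did so without NICcA replicate 2. Every other alternative kept each member's direction. With no scaling factors the median of all genes moved to 0.11. Ifi205 and Pydc3 could not be fitted under the filters that asked 2 or more libraries for a CPM or RPKM of 1, since only NICcA replicate 2 reached it. Their counts of 6 to 21 elsewhere limit what can be said of differences among those libraries.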
